A study of Homo sapiens with 6 samples.

Results

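The 9 genes described here, of retinoic acid synthesis, reception and response, were followed through an RNA-seq comparison of SW403 cells with normal IRS2 expression and SW403 cells with IRS2 knockdown. They are 9 of the 26490 gene symbols in the count table: ALDH1A1, ALDH1A2 and ALDH1A3 (synthesis), RARA, RARB, RARG and RXRA (nuclear receptors), CRABP2 (a binding protein) and DHRS3 (a retinal reductase). They were picked by symbol, and the set was chosen from values of the same knockdown contrast, in which ALDH1A2 had the largest fall among 10449 well-expressed genes (mean count 100 or more). Their differences between the groups are therefore given as a description with no test. Adjusted p-values of single genes are given only for other genes of the pathway and for cell type markers. A later count of the described genes by adjusted p stands beside the share of all tested genes, and nothing is read from it.

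SW403 is an established human colon adenocarcinoma line. The control group holds 3 libraries whose genotype label is WT, and the knockdown group holds 3 libraries whose genotype label is IRS2_knockdown. All 6 cultures were grown in DMEM with fetal bovine serum for 24 h after seeding, and no agent was added. The sample titles call the replicates biological. Those titles read control and knockdown, while the column headers read DMEM_NS and DMEM_IRS2KO. The headers do not spell out NS. How IRS2 was lowered, whether a group is 1 clone and whether its cultures came from separately made lines are not stated, so p-values measure the spread between these samples only.

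Retinoic acid is made from vitamin A in a pair of oxidations. Retinol dehydrogenases turn retinol into retinal, which reductases such as DHRS3 turn back, and enzymes of the ALDH1A family oxidise retinal irreversibly to retinoic acid. CRABP2 carries retinoic acid to the nucleus, where receptors of the RAR family, paired with an RXR, bind direct repeats of a short DNA word near target genes. RARB and CYP26A1, which encodes an enzyme that breaks retinoic acid down, are textbook targets of this kind. In the intestine, retinoic acid is known for its part in epithelial differentiation and mucosal immunity.

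The promoters were examined first because the receptors act through DNA sequence. RefSeq promoter windows (GRCh38.p14, from 250 bases before a start site to 50 after it) were found for all 9 genes. They were searched on both strands for 2 hexamers in direct repeat, each of the letters AGGTCA or AGTTCA or GGTTCA or GGGTCA, with a spacer of 1, 2 or 5 bases. The spacing of 5 (DR5) was found in 1 of the 9 genes, RARB, and in 1 of 74 other pathway genes with a window, CYP26A1. Over all 27305 genes with a window, 29 had a DR5, or 0.106%. Spacings of 1 and 2 were found in none of these 9 or 74 genes, against 0.161% and 0.0513% of all genes. The letters searched include GGTTCA and AGTTCA, which make up both matches. RARB and CYP26A1 were known targets beforehand, so these shares are a description and no test of enrichment. The 120 bases before the start are shown for these 2 genes, because they hold the match, and for ALDH1A2, because it is the lead gene. Capitals mark the hexamers. Positions are exact matches of the RefSeq windows to GRCh37: the RARB stretch at chr3:25469634-25469753 on the plus strand, the CYP26A1 stretch at chr10:94833530-94833649 on the plus strand and the ALDH1A2 stretch at chr15:58357910-58358029 on the minus strand.
RARB: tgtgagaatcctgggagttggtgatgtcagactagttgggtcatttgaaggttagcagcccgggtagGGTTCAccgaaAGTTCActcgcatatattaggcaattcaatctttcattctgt
CYP26A1: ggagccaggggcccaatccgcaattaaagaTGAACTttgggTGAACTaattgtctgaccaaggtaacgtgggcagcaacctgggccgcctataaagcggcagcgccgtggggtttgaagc
ALDH1A2: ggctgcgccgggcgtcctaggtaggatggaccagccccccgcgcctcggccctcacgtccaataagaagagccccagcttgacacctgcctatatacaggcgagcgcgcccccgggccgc
The RARB match lies on the strand of the gene, from -53 to -37 relative to the start, in 1 of the 4 RARB windows. The CYP26A1 match lies on the opposite strand, from -90 to -74, so its hexamers read as the reverse complement in the stretch above. Both genes had lower counts in knockdown, as described below. Both were expressed enough to be tested through their control libraries only, and RARB belongs to the set chosen from this contrast. Nothing is therefore read from their lower counts beside the matches. Neither ALDH1A2 window holds these letters, and nothing about receptor binding follows from that. Of the 8 other genes with a DR5 that were expressed enough to be tested, 0 passed the threshold in edgeR, DESeq2 or limma voom. Likewise, 0 of the 8 had an unadjusted p under 0.05 in any of these fits. Of all 13832 tested genes, 38.5% passed the threshold in edgeR. With only 8 genes, nothing is read from this count.

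The deposited counts summed to between 11816973 and 12585013 in the control libraries and between 14329348 and 18114656 in the knockdown libraries, so every knockdown library was the deeper. Values are given as CPM, the count divided by that total and scaled to 1000000. Here and below, ± after a CPM, TPM or percentage is the SD over the 3 libraries of a group (n = 3), and ± after a log2 fold change is its standard error. The expression filter of edgeR, which asks for enough counts in at least 3 libraries, kept 13832 genes and 8 of the 9 described here. IRS2 itself, the check of the labels, was at 33.2 ± 1.42 CPM in control against 12.4 ± 0.535 CPM in knockdown. The labelled cell type was compared with 12 colon epithelium markers. KRT8, KRT18, CDX2, HNF4A and EPCAM were expressed, while CDX1, KRT20 and CEACAM5 had no count in any library, and CDH1, the E-cadherin gene, had between 0 and 5 counts. Of the 7 markers tested, 4 differed between the groups, beside 38.5% of all tested genes. HNF4A and CDX2 were higher in knockdown (log2 fold change 0.69 and 0.14, edgeR adjusted p 1.73e-10 and 0.0148). KRT19 and EPCAM were lower (-0.47 and -0.21, edgeR adjusted p 4.35e-08 and 0.00581). The summed level of 8 fibroblast markers differed between the groups, from 9.56 to 28.1 CPM in control and from 5.98 to 7.45 CPM in knockdown. Of the 3 that could be tested, 2 were lower, beside 19.2% of all tested genes. Control replicate 1 was the highest, with COL1A1 at 15.3 CPM and COL1A2 at 6.83 CPM against 5.73 and 0.876 CPM in control replicate 2. Summed endothelial and leukocyte markers were at most 2.93 CPM in every library.

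Among the synthesis enzymes, the level of ALDH1A2 was much lower in knockdown, that of ALDH1A3 slightly lower, and ALDH1A1 was close to absent in both groups. ALDH1A2, also called RALDH2, is the main retinoic acid producing enzyme of the vertebrate embryo. The gene lies on chromosome 15 (GRCh37, 58245622 to 58790065, minus strand) and its annotated canonical transcript has 13 exons. Counts of 201, 195 and 176 in control compared with 46, 55 and 54 in knockdown. This gave 16.0, 15.5 and 14.9 CPM in control against 3.21, 3.22 and 2.98 CPM in knockdown. The lowest control library was thus well above the highest knockdown library. The log2 fold change was -2.27 ± 0.12, a 4.83-fold lower level in knockdown. ALDH1A2 is also known from stromal cells, and the fibroblast marker sum above was lower in knockdown. Over the control libraries that sum ranged from 9.56 to 28.1 CPM, and ALDH1A2 from 14.9 to 16.0 CPM. Of the 8 fibroblast markers, COL1A1 was lower in knockdown, with a log2 fold change of -1.15 ± 0.28, and COL3A1 with one of -1.71 ± 0.52 (edgeR adjusted p 0.0029 and 0.0136), while PDGFRB had a log2 fold change of -0.18 (edgeR adjusted p 0.609). COL1A1 had 193, 72 and 67 counts in control and 61, 62 and 72 in knockdown. In CPM this was 15.3, 5.73 and 5.67 against 4.26, 3.63 and 3.97. These CPM values did not overlap between the groups, as was the case for 48.4% of all tested genes. The other 5 markers had too few counts to be tested. LUM had 7, 7 and 5 counts in control and 3, 4 and 3 in knockdown. PDGFRA had 7, 11 and 7 counts against 3, 3 and 2. DCN had 2, 1 and 3 counts against 0, 0 and 1. CPM of these 3 genes did not overlap between the groups. The share of tested genes above does not cover genes with so few counts, and none was computed for them. COL1A2, COL3A1 and PDGFRB overlapped between the groups, and THY1 had at most 1 count per library. The part of these markers in the ALDH1A2 difference was not tested. In bulk RNA, fewer cells that express a gene and less RNA per cell cannot be told apart.

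ALDH1A3, the paralogue that carries most ALDH1A expression in these cells, was at 193, 188 and 192 CPM in control. In knockdown it was at 172, 173 and 171 CPM. The groups did not overlap, although the log2 fold change was only -0.12 ± 0.03. ALDH1A1, which marks stem-like cells in many tissues, had 9, 3 and 7 counts in control and 0, 0 and 1 in knockdown. The summed 19 and 1 counts were too few for the expression filter.

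Levels of different genes can be set side by side once counts are scaled by transcript length (TPM, here from 1 annotated transcript per gene, summing to 1000000 in each library). ALDH1A3 stood at 135.9 ± 2.11 TPM in control and 125.9 ± 2.17 TPM in knockdown. ALDH1A2 stood at 11.3 ± 0.281 TPM in control and 2.35 ± 0.130 TPM in knockdown. ALDH1A2 therefore made up 7.63 ± 0.260% of the summed ALDH1A level in control and 1.83 ± 0.0698% in knockdown. The sum of the 3 genes was 147.8 ± 2.20 TPM in control and 128.3 ± 2.26 TPM in knockdown. ALDH1A3 thus made up most of the summed level in both groups.

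**Figure D1:**
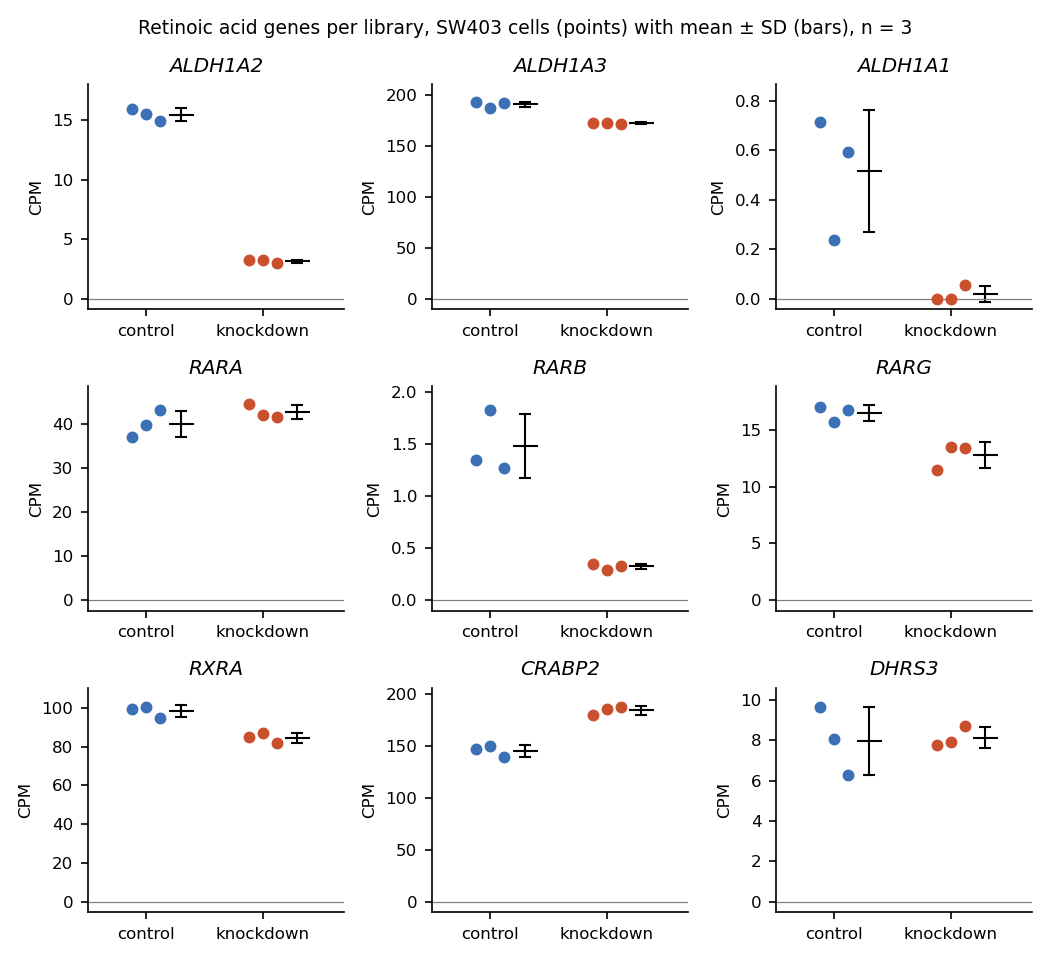
CPM of the 9 genes (y axis, grey line at 0, one scale per gene) in the 3 control and 3 knockdown libraries of SW403 cells; points are libraries and bars are mean ± SD. The groups lie apart for ALDH1A2 (14.9 to 16.0 against 2.98 to 3.22 CPM) and RARB, and they overlap for RARA and DHRS3.

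The retinoic acid receptors differed from one another in direction and size. RARB, the receptor gene that is itself a retinoic acid target, had 17, 23 and 15 counts in control and 5, 5 and 6 counts in knockdown. This corresponded to 1.35, 1.83 and 1.27 CPM against 0.349, 0.293 and 0.331 CPM, so the groups did not overlap. Its log2 fold change was -2.14 ± 0.36, a 4.41-fold lower level in knockdown. RARB reached the expression filter through its control libraries only. Genes that enter in this way are, by that selection, lower in knockdown.

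RARG, the receptor best known from skin and other squamous epithelia, was at 17.0, 15.7 and 16.8 CPM in control against 11.4, 13.5 and 13.4 CPM in knockdown. The groups did not overlap, and the log2 fold change was -0.33 ± 0.09. RARA, the receptor with the broadest expression, was at 37.0, 39.8 and 43.1 CPM in control against 44.6, 41.9 and 41.6 CPM in knockdown. Its groups overlapped, with a log2 fold change of 0.12 ± 0.06. An antisense gene, RARA-AS1, overlaps RARA and had 137 counts over the 6 libraries, and the strand setting of the counting is not stated, so reads of the pair may not be separated. RXRA, the shared partner of these receptors and of several other nuclear receptors, was at 99.6, 100.5 and 94.7 CPM in control. In knockdown RXRA was at 85.1, 86.9 and 81.9 CPM, below every control library, with a log2 fold change of -0.19 ± 0.04.

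Summed over the 3 RAR genes, the length-scaled level was 45.3 ± 2.65 TPM in control and 44.4 ± 0.858 TPM in knockdown, a difference smaller than the spread of the control libraries. Within that sum the share of RARA was 64.4%, 67.1% and 68.1% in control and 77.1%, 73.1% and 73.0% in knockdown. The share of RARB was 2.59 ± 0.576% in control and 0.591 ± 0.0505% in knockdown. The share of RARG was 33.2%, 29.7% and 29.8% in control and 22.2%, 26.4% and 26.4% in knockdown.

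CRABP2 was the single gene of the 9 with a clearly higher level in knockdown. It encodes cellular retinoic acid binding protein 2. Its levels were 146, 149 and 139 CPM in control against 179, 185 and 187 CPM in knockdown, with no overlap. The log2 fold change was 0.38 ± 0.04, a 1.30-fold higher level. DHRS3, which reduces retinal to retinol and is induced by retinoic acid in many cells, was at 9.61, 8.04 and 6.26 CPM in control against 7.75, 7.91 and 8.72 CPM in knockdown. The control libraries of DHRS3 spanned all 3 knockdown values. Its log2 fold change was 0.06 ± 0.14, and the sign turned without control replicate 3 (-0.08) or without knockdown replicate 3 (-0.0030).

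Of the 8 genes that entered the edgeR fit, 5 had an adjusted p under 0.05 and were lower, against 19.2% of all tested genes. One gene of the 8, CRABP2, was higher with such a p, against 19.3% of all tested genes. Of the 5 lower genes, RARG lost its call in 1 of 15 alternative fits, that with DESeq2. RARB, also among the 5, had entered through its control libraries only. In either direction 38.5% of all tested genes passed. The values of 6 of the 8 did not overlap between groups, as was the case for 48.4% of all tested genes. Since the contrast that gives these counts also chose the genes, nothing is read from them.

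Ordered by length-scaled level in control, CRABP2 came first with 366.9 ± 11.9 TPM, followed by ALDH1A3, RXRA (43.8 ± 1.12 TPM) and RARA (30.2 ± 2.59 TPM). RARG at 14.0 ± 0.575, ALDH1A2 at 11.3 ± 0.281 and DHRS3 at 8.93 ± 1.79 TPM formed a middle group. RARB at 1.17 ± 0.239 and ALDH1A1 at 0.607 ± 0.289 TPM were the lowest. No neighbours in this order overlapped in their control ranges, although the lowest ALDH1A2 library (10.97 TPM) and the highest DHRS3 library (10.67 TPM) nearly met. The ranges of that pair did overlap when the coding length or the longest transcript was used, as did those of RARB and ALDH1A1 with the longest transcript. In knockdown the order was the same except that ALDH1A2 (2.35 ± 0.130 TPM) stood below DHRS3 (9.36 ± 0.481 TPM). With the coding length, RARG and DHRS3 overlapped in knockdown.

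**Figure D2:**
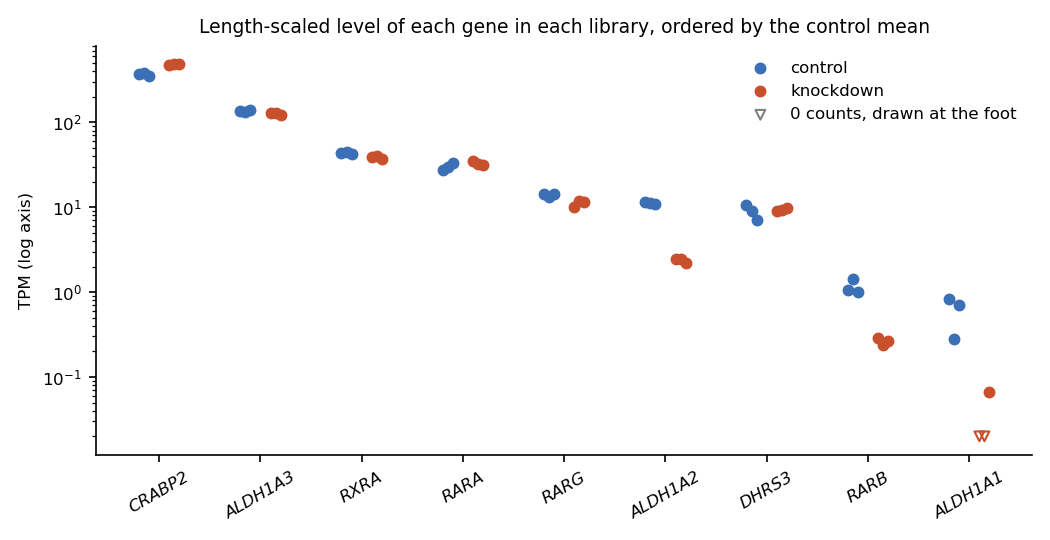
Length-scaled level (TPM, log axis) of each of the 9 genes in each control and knockdown library, ordered by the control mean; open triangles mark libraries with 0 counts. CRABP2 is the highest in both groups, and ALDH1A2 and DHRS3 change places between control and knockdown.

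The profile over the 6 libraries was compared between ALDH1A2 and 10448 other genes of mean count 100 or more, as the root mean square difference of log2 CPM relative to the control mean. The nearest profiles were those of SLIT2 (0.21), which encodes a guidance ligand of ROBO receptors, CDH2 (0.24), which encodes N-cadherin, and EMB (0.25), which encodes the transporter chaperone embigin. SLIT2 was at 29.4, 32.6 and 31.6 CPM in control against 7.40, 8.44 and 7.62 CPM in knockdown. Its log2 fold change was -1.96, that of CDH2 -1.92 and that of EMB -1.95. ALDH1A2 had the largest fall of these genes, so by this measure a near profile is one with a large fall. Nothing more is read from the nearness.

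The other genes of the pathway were read from 7 lists, 101 measured genes in all. Of these, 69 were expressed enough to be tested, and 32 passed an adjusted p of 0.05 in edgeR, 14 higher and 18 lower. Of all 13832 tested genes 38.5% passed, 19.3% higher and 19.2% lower. The median log2 fold change of the 69 was -0.02, beside -0.0039 over all tested genes, and the median size of change was 0.15, beside 0.14.

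Of 13 measured genes of retinol uptake, binding and storage, 6 were tested, 3 rose and 0 fell, beside 19.3% and 19.2% of all tested genes. The median log2 fold change of the 6 was 0.11. STRA6, the cell surface receptor that takes up retinol and a known retinoic acid target, rose from 151 ± 1.93 to 181 ± 3.41 CPM. Its log2 fold change was 0.30 ± 0.03, with an edgeR adjusted p of 1.1e-06. SCARB1, a receptor that takes up lipoprotein lipids and carotenoids, rose from 155 ± 5.01 to 169 ± 5.24 CPM (edgeR adjusted p 0.00319). LRAT, which stores retinol as its ester, had at most 1 count per library, and RBP2, RBP4 and TTR had none.

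Of 19 measured enzymes that interconvert retinol and retinal, 7 were tested, 4 fell and 1 rose, beside 19.2% and 19.3% of all tested genes. The median log2 fold change of the 7 was -0.37. RDH14 fell from 23.3 ± 1.39 to 13.1 ± 0.671 CPM, a log2 fold change of -0.80 ± 0.08 with an edgeR adjusted p of 1.95e-07. RDH11, a retinal reductase, fell from 90.5 ± 2.19 to 68.8 ± 3.03 CPM (edgeR adjusted p 2.06e-06). DHRS7 and DHRS4 fell by 0.41 and 0.42 on the log2 scale (edgeR adjusted p 0.000297 and 0.00244). RDH13 rose by 0.16 on the log2 scale with an edgeR adjusted p of 0.0341, a call that was lost in 8 of 15 alternative fits (adjusted p up to 0.177). RDH10, the main retinol dehydrogenase of the embryo, was at 17.6 ± 2.20 CPM in control against 18.5 ± 0.827 CPM in knockdown (edgeR adjusted p 0.411). The alcohol dehydrogenases ADH1A, ADH1B and ADH4, and the dehydrogenases DHRS9 and RDH8, had no count in any library.

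**Figure D3:**
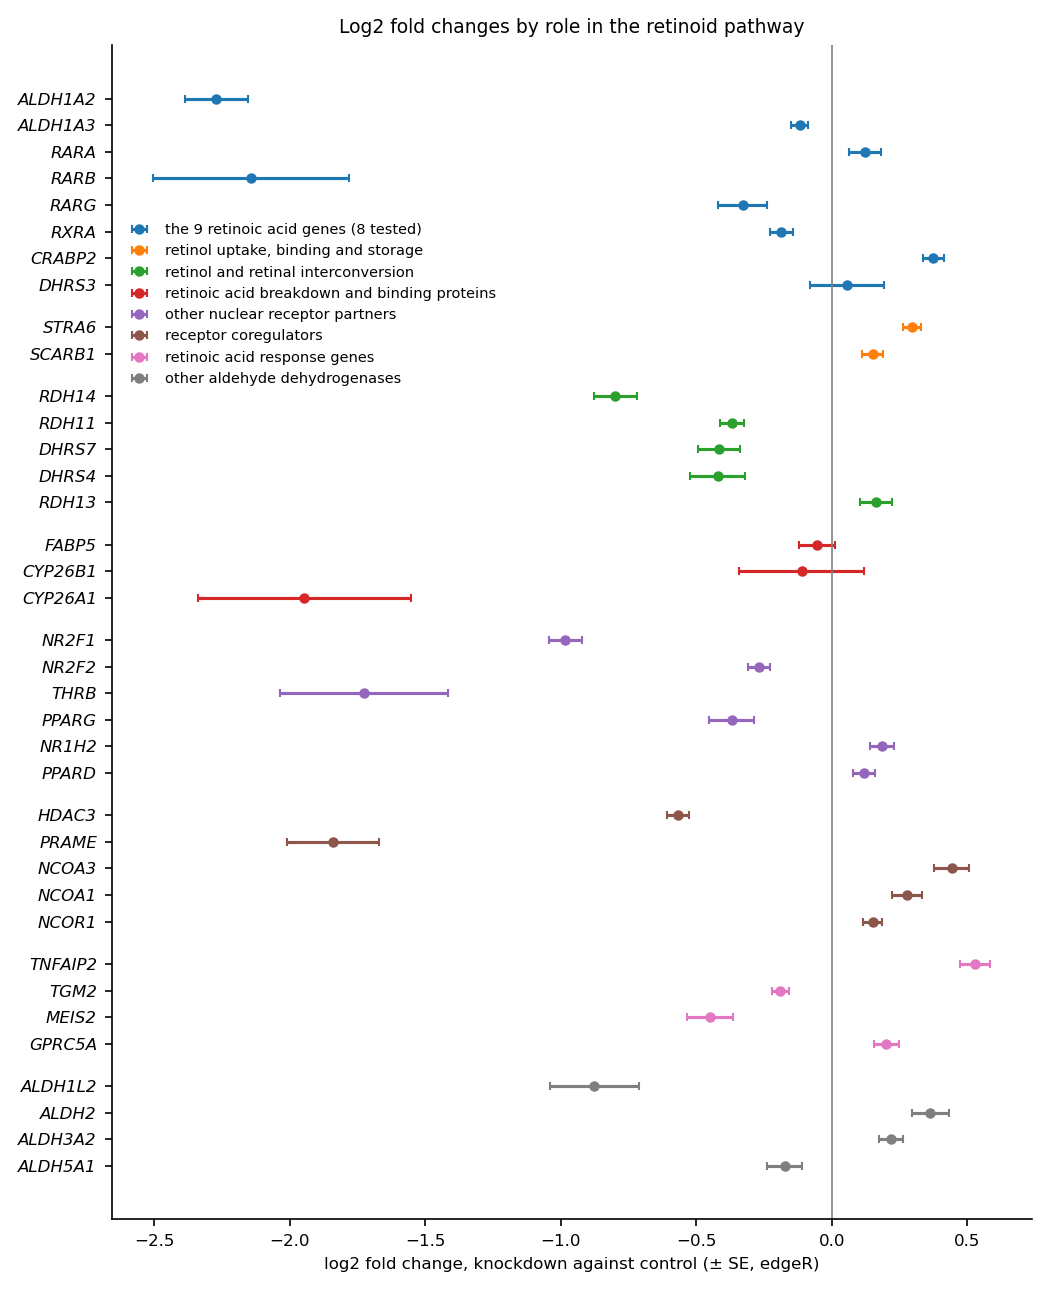
Log2 fold change of knockdown against control (x axis, edgeR, bars are SE) for the 8 tested retinoic acid genes and for named genes of the other lists, coloured by list. ALDH1A2 (-2.27), RARB (-2.14), CYP26A1 (-1.95), PRAME (-1.84) and THRB (-1.73) lie farthest to the left, and TNFAIP2 (0.53), NCOA3 (0.44) and CRABP2 (0.38) farthest to the right.

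Among genes of breakdown and intracellular binding, 3 of 5 were tested, 1 fell and 0 rose, beside 19.2% and 19.3% of all tested genes. The one that fell was CYP26A1, named here after its values were seen because its mean count lies below the minimum of 20 set for named genes. It had 15, 12 and 18 counts in control and 5, 6 and 4 in knockdown, or 1.22 ± 0.285 and 0.307 ± 0.0747 CPM. The groups did not overlap, and the log2 fold change was -1.95 ± 0.39 (edgeR adjusted p 0.000586). Like RARB, CYP26A1 reached the expression filter through its control libraries only. CYP26B1, the paralogue that also degrades retinoic acid, averaged 2.33 ± 0.255 CPM against 2.14 ± 0.497 in knockdown (edgeR adjusted p 0.746). FABP5, which can carry retinoic acid to another receptor, PPARD, averaged 84.0 ± 3.67 CPM against 79.0 ± 9.35 in knockdown (edgeR adjusted p 0.551). Without knockdown replicate 3, FABP5 passed as lower (-0.16 on the log2 scale, edgeR adjusted p 0.0111). CRABP1 had at most 1 count per library.

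Of the other nuclear receptors, 12 of 13 were tested, 5 fell and 2 rose, beside 19.2% and 19.3% of all tested genes. NR2F1 and NR2F2 encode the COUP-TF orphan receptors, which can occupy the same direct repeats as RAR and RXR. NR2F1 fell from 59.5 ± 4.16 to 29.5 ± 2.03 CPM, a log2 fold change of -0.98 ± 0.06 with an edgeR adjusted p of 3.59e-10. NR2F2 fell from 105 ± 1.69 to 85.2 ± 2.97 CPM (edgeR adjusted p 3.13e-05). THRB, a thyroid hormone receptor, had a log2 fold change of -1.73 ± 0.31 (edgeR adjusted p 0.000202). Its counts were low, 26 to 40 in control and 9 to 19 in knockdown. The knockdown libraries alone would not have carried THRB past the expression filter, so it entered through its control libraries. PPARG fell by 0.37 and NR1H3 by 0.25 on the log2 scale (edgeR adjusted p 0.00163 and 0.0334). NR1H2, the liver X receptor beta gene, rose by 0.19 on the log2 scale (edgeR adjusted p 0.00327). PPARD had a log2 fold change of 0.12 with an edgeR adjusted p of 0.0264, a call lost in 8 of 15 alternative fits. RXRB, the paralogue of RXRA, had a log2 fold change of -0.12 ± 0.06 (edgeR adjusted p 0.14).

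Coregulators of the receptors moved both ways, with 14 of 14 tested, 4 higher and 2 lower, beside 19.3% and 19.2% of all tested genes. PRAME, a repressor of RAR signalling known from tumours, fell from 8.15 ± 1.33 to 2.22 ± 0.0487 CPM. Its log2 fold change was -1.84 ± 0.17, with an edgeR adjusted p of 7.16e-08. HDAC3, a histone deacetylase of nuclear receptor corepressor complexes, fell from 102 ± 1.61 to 67.1 ± 1.74 CPM (edgeR adjusted p 3.66e-09). The corepressor gene NCOR1 rose, with a log2 fold change of 0.15 (edgeR adjusted p 0.00247). The coactivator genes NCOA3 and NCOA1 rose by 0.44 and 0.28 on the log2 scale (edgeR adjusted p 1.62e-05 and 0.000572).

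The list of retinoic acid response genes did not move in 1 direction. Of 27 measured genes, 18 were tested, 4 rose and 5 fell, beside 19.3% and 19.2% of all tested genes. The median log2 fold change of the 18 was -0.0032. Besides STRA6, the genes that rose included TNFAIP2 (log2 fold change 0.53, edgeR adjusted p 4.22e-07) and GPRC5A, a retinoic acid induced receptor gene (0.20, edgeR adjusted p 0.00149). Besides CYP26A1, MEIS2, a homeobox partner of HOX proteins, fell by 0.45 on the log2 scale (edgeR adjusted p 0.000343). TGM2, the tissue transglutaminase, fell from 299 ± 1.85 to 257 ± 1.80 CPM (edgeR adjusted p 5.53e-05). HOXA4 and HOXB5 were the remaining genes that fell (log2 fold change -0.37 and -0.21, edgeR adjusted p 0.00618 and 0.0164). RARRES1, CDX1, ISX and HOXB1 had at most 1 count in any library.

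**Figure D4:**
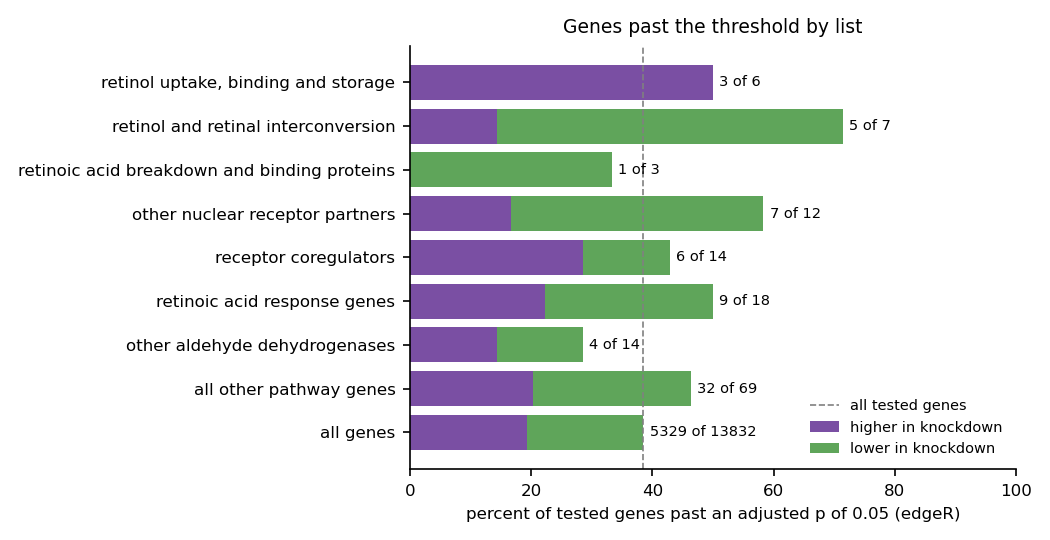
Share of tested genes of each list past an adjusted p of 0.05 in edgeR (x axis, percent), divided into higher and lower in knockdown; the dashed line marks all tested genes (38.5%). Entry and binding genes that passed are all higher (3 of 6 tested), interconversion genes that passed are lower in 4 of 5 cases, and the response list holds both directions.

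Other aldehyde dehydrogenases gave the comparison for the ALDH1A family. Of 16 measured, 14 were tested, 2 rose and 2 fell, beside 19.3% and 19.2% of all tested genes. The median size of change of the 14 was 0.09. ALDH1L2, a mitochondrial folate enzyme, fell from 5.27 ± 0.0425 to 2.82 ± 0.176 CPM (edgeR adjusted p 0.000285). ALDH2, the mitochondrial acetaldehyde enzyme, rose from 26.7 ± 1.84 to 33.6 ± 2.12 CPM (edgeR adjusted p 0.000316). ALDH3A2, a fatty aldehyde enzyme, rose by 0.22 on the log2 scale (edgeR adjusted p 0.000636). ALDH5A1 fell by 0.17 with an edgeR adjusted p of 0.0409, and this call was lost in 6 of 15 alternative fits (adjusted p up to 0.225). ALDH1B1, which can also oxidise retinal, was at 78.3 ± 1.74 CPM in control against 77.2 ± 1.90 CPM in knockdown (edgeR adjusted p 0.879).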

How the data were processed

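The authors deposited whole-number read counts per gene symbol for 6 libraries, and a second table of normalized signal. Per the submitters' processing notes, STAR 2.6.1a, Salmon, DESeq2 and hg19 were used, with no role given; annotation and strand setting are not given in the sources used here. In the second deposited table each count was divided by 1 constant per library (0.847 to 1.25), and genes with under 10 counts in all are not listed. It served only as an alternative, on a log2 scale with a pseudocount of 1. Counts as deposited were tested with edgeR 4.0.16 (TMM, filterByExpr, quasi-likelihood F-test, group as the only term), adjusted by Benjamini-Hochberg over 13832 genes. The SE of a log2 fold change is its size divided by the square root of F. An exact permutation test of 3 against 3 cannot give a two-sided p below 0.1. TPM used GENCODE version 44 lifted to GRCh37, 1 transcript per gene, which covered 93.2% to 93.7% of counts. Replicate pairs differed beyond counting error (chi-square over degrees of freedom 1.41 to 2.86).

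The genes described and the lists were chosen with earlier results of these data known. The rule for named pathway genes was an adjusted p under 0.05 and a mean count of 20 or more. At most 6 per list were taken by smallest p, or the 2 most abundant where none passed. CYP26A1, NR1H3, HOXA4, HOXB5, RXRB, RDH10 and ALDH1B1 were named outside this rule, as were genes with almost no counts. The 15 alternative fits were DESeq2 size factors, upper-quartile factors, library size, no filter, a mean of at least 50 counts, DESeq2 1.42.0, limma 3.58.1 voom, limma on the deposited values, a replicate block, and leaving out each library. Scripts were tested on simulated data. Columns matched the sample descriptions, and 0 columns were left unused. A few genes of the lists are counted but not reported here by name.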

Additional observations from a re-analysis of the deposited data

How the results depend on the processing

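ALDH1A2 had log2 fold changes that ranged from -2.30 to -2.24 over 15 alternative fits, and from -2.29 to -2.24 over the 6 fits that each left out 1 library. Between 26 pathway genes (with DESeq2) and 35 (with every gene kept) passed, and between 3604 and 5722 of all genes. With DESeq2, 1654 genes were lower instead of 2653, and the cause was not tested. With the replicate number as a block, 4862 genes and 30 pathway genes passed, and ALDH1A2 had a log2 fold change of -2.27; the numbers pair nothing in the labels, and deviations of same-numbered libraries correlated at -0.07, -0.04 and -0.22. Under the block PPARD (adjusted p 0.0539) and RDH13 (0.0573) lost their calls. Of 119 values for the 8 tested retinoic acid genes, 115 moved by less than the replicate SD; RARB was -1.93 on the deposited normalized values, and ALDH1A3 ranged from -0.15 to -0.11. Of 477 values for the other named genes and IRS2, 452 kept direction and side. With 1 library left out, CYP26B1 ranged from -0.25 to 0.067 (positive without knockdown replicate 3) and FABP5 from -0.16 to 0.0023 (positive without knockdown replicate 2), neither past the threshold where the sign changed. ALDH1A1 and LRAT were too shallow for any statement on change, and RARB and CYP26A1 rest on at most 23 counts per library.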
